A study of Mus musculus with 24 samples.

Results

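The genes described here are 10 members of the TGF-beta and BMP signalling circuit, followed in SIM-A9 cells (a line of mouse microglia) after exposure to neural probes. They are the ID genes Id1, Id2 and Id3, the receptor-regulated SMAD Smad3, the inhibitory SMADs Smad6 and Smad7, the corepressor genes Skil and Tgif1, the ligand gene Tgfb1 and the receptor gene Tgfbr1. They were taken from a table of 54838 genes by symbol, and 9 of the 10 held enough reads to be tested among 13116 tested genes. The list was drawn up with the transcript levels of these same comparisons in view. The differences below therefore describe each gene, and a count over the list is no test of the list.

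The study asked how probes of neural activity change the microglial transcriptome and set each beside LPS, bacterial lipopolysaccharide, the standard activator of the Toll-like receptor TLR4. There were 8 groups of 3 libraries: untreated control, AAV, LPS, COOH SWCNT, (GT)6 SWCNT, Di-2-ANEPEQ, Fura-2 and DiBASC2. SWCNT are single-walled carbon nanotubes. The (GT)6 nanotubes carry a short DNA named for its repeat, and the labels call the COOH nanotubes carboxylated. Fura-2 is a calcium indicator, Di-2-ANEPEQ a voltage-sensitive dye, and AAV an adeno-associated virus. DiBASC2 is spelled as in the sample titles. Its treatment label carries another trailing number in each library, and its column name has the spelling DiSBAC2. In every group the cells stood for 2 h in serum-free medium, then 30 uL of a 10x sample went onto 270 uL of medium, and RNA was extracted after 2 h. Doses are not given in the sources used here. All groups thus share serum withdrawal, and all cells are of 1 line. Nothing states that the libraries of a group came from separate cultures, so the p-values measure the spread between these libraries only.

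TGF-beta and BMP ligands bind paired serine/threonine kinase receptors, which phosphorylate receptor-regulated SMADs that then enter the nucleus with SMAD4. SMAD6 and SMAD7 block this step at the receptor, and SKIL (also called SnoN) and TGIF1 hold SMAD target genes silent with histone deacetylases. The ID proteins are helix-loop-helix proteins with no DNA-binding region. They pair with E proteins such as TCF3, TCF4 and TCF12 and keep them off DNA. Their genes are well-known targets of BMP signalling, and TGF-beta signalling through SMAD3 is known for maintaining the resting identity of microglia in the brain.

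Promoter windows in the RefSeq table (GRCm38.p6; 250 bases before to 50 after the start) were found for 7 of the 10 genes, all but Id1, Skil and Smad7. They were searched on both strands for short words tied to this pathway and to inflammatory induction. The 4 stretches below are chosen examples that hold words known from SMAD-responsive promoters. Windows of Smad3, Tgfb1 and Tgif1, not shown, also held such a word, the SMAD box GTCT. Capitals mark the word GGCGCC in Id2 and Tgfbr1, the SMAD palindrome GTCTAGAC in Smad6, and in Id3 a CRE half-site (TGACG, here on the other strand) that overlaps a SMAD box (GTCT, also on the other strand) by 1 base.
Id2, chr12:25096254-25096342, minus strand: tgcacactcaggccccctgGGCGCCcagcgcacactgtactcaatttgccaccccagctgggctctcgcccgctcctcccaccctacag
Id3, chr4:136143641-136143670, plus strand: gctgtcctcggCGTCAGACcagcctaagga
Tgfbr1, chr4:47352972-47353031, plus strand: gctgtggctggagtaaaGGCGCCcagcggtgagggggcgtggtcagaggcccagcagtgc
Smad6, chr9:64022045-64022074, minus strand: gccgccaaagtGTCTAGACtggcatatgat

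Starts here are those of RefSeq. In GENCODE, which gave the gene spans printed with the values below, a transcript of each of Id2 and Id3 begins farther upstream, so the Id2 stretch lies in an intron of that transcript and the Id3 stretch in an exon. The capitals begin 231 bases before the start of Id2, 170 before that of Id3, 233 before the first start of Tgfbr1 and 4 before that of Smad6. GGCGCC occurs in 11.9% of the 32851 windows of 300 bases in that table, GTCTAGAC in 0.213%, TGACG in 20.8% and GTCT in 88%. The full CRE (TGACGTCA, in 1.79% of all windows) was in no window of these genes, and neither was the NF-kB word GGGACTTTC (0.353%). The EGR word GCGTGGGCG (0.612%) was in the Tgfb1 window. Id2 and Id3 rose together in 3 of the groups below, and their windows shared the SMAD box alone among the words searched. Such matches describe letters and are not evidence of binding.

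Total counts ranged from 17364272 to 29259221 per library, and reads of mitochondrial genes from 1.42% to 1.79%. All 12 microglia and macrophage markers were tested. Their summed level lay between 2207 and 2437 CPM (counts scaled to a common library size) in every library. Cd68 (mean 848 CPM), Csf1r (516) and Spi1 (311) were the highest of the 12. The lowest were P2ry12 (2.28), Tmem119 (3.79) and Aif1 (4.09), each below the oligodendrocyte marker Mbp (4.42). The sum thus says little about the low markers. Of 25 markers of astrocytes, neurons, oligodendrocytes, endothelial cells and fibroblasts, 4 were tested and 5 were at 0 throughout. Oligodendrocyte markers summed to 3.41 to 5.80 CPM, neuron markers to at most 1.03, astrocyte markers to at most 0.489 and fibroblast markers to at most 0.379. The endothelial list summed to 90.8 to 142 CPM, nearly all of it from Kdr. In bulk RNA, fewer cells of a type and less RNA per cell cannot be told apart.

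Transcripts of Id2, Id3, Tgif1 and Tgfb1 rose in LPS and with both nanotubes, Skil rose in LPS and COOH SWCNT and Smad7 in LPS, while Tgfbr1 fell in LPS and (GT)6 SWCNT and Smad3 in (GT)6 SWCNT. Genes were called at an adjusted p under 0.05 in edgeR's quasi-likelihood test with Benjamini-Hochberg adjustment over all 13116 genes. In LPS 7 of the 9 were called, against 28.3% of all tested genes. Id2, Id3, Skil, Tgif1, Smad7 and Tgfb1 rose, and Tgfbr1 fell. In (GT)6 SWCNT 6 of 9 were called (20.4% of all genes), with Id2, Id3, Tgif1 and Tgfb1 higher and Smad3 and Tgfbr1 lower. In COOH SWCNT 5 of 9 were called (20.03% of all genes), and these 5, Id2, Id3, Skil, Tgif1 and Tgfb1, were higher. DiBASC2 had 2 calls (5.47% of all genes), with Id3 and Tgif1 lower. The members were picked with these contrasts known, so nothing is read from the counts. All 7 comparisons use the same 3 control libraries, so their values stand side by side and are not independent of each other.

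**Figure D1:**
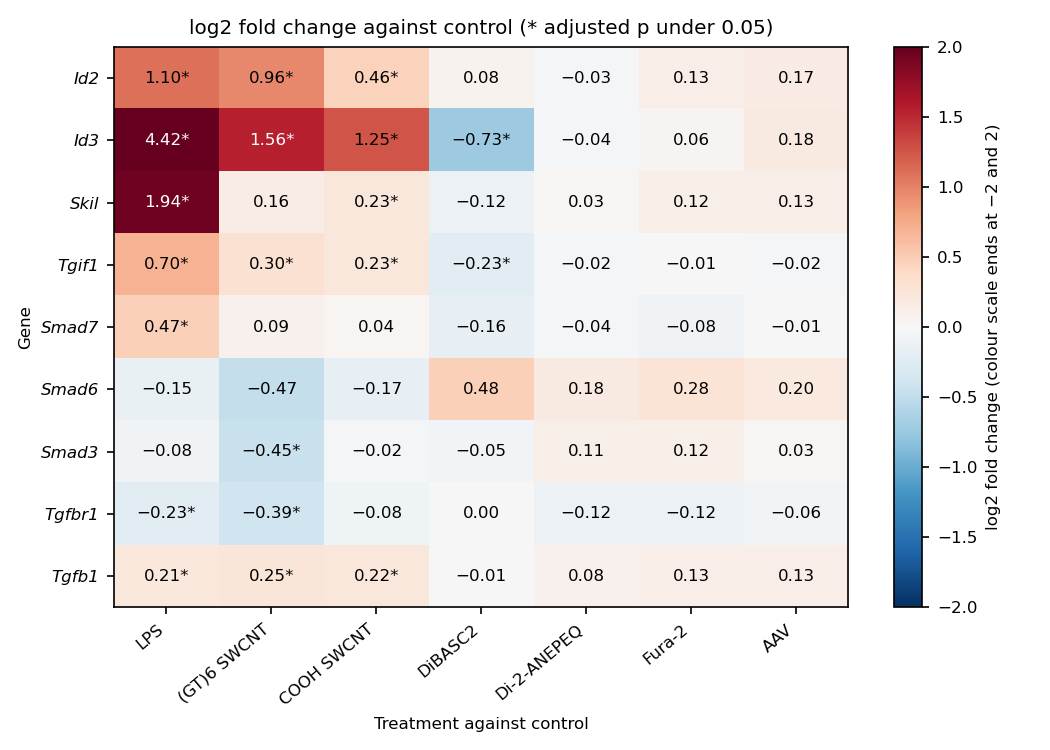
log2 fold change of the 9 tested genes (rows) in each treatment against control (columns), with 3 libraries per group. Red is higher and blue lower, the colour scale ends at -2 and 2, and a star marks an adjusted p under 0.05. Id3 reaches 4.42 in LPS, and the Fura-2, Di-2-ANEPEQ and AAV columns carry no star.

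The plot of fold changes by treatment places most of the stars in the LPS column and the columns of both nanotubes. Id3 had the largest value in each of these columns, followed by Skil (1.94) in LPS and by Id2 with both nanotubes. In the lower rows of the (GT)6 SWCNT column Smad3 (-0.45) and Tgfbr1 (-0.39) were lower and Tgfb1 (0.25) was higher.

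Id3 had the widest range of the ID genes. It lies on chromosome 4 (136143497 to 136145755, GRCm38), is protein-coding, and shares no exon position with another gene. Its control libraries stood at 6.76, 5.36 and 5.66 CPM and its LPS libraries at 117, 125 and 137 CPM. All LPS libraries thus lay far above every other library. The change was 21.4-fold, or 4.42 ± 0.10 as log2 fold change with its SE (adjusted p 3.65e-30 in edgeR's quasi-likelihood test, as for all adjusted p-values here). Id3 ranked 30 among all tested genes by the size of its LPS change.

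The nanotubes raised Id3 to a lower level. The (GT)6 SWCNT libraries stood at 16.9, 17.8 and 17.2 CPM and the COOH SWCNT libraries at 11.9, 16.5 and 14.1 CPM. All 6 lay above the control libraries and below the LPS libraries. Against control the log2 fold change was 1.56 ± 0.12 in (GT)6 SWCNT (2.94-fold, adjusted p 2.6e-13) and 1.25 ± 0.12 in COOH SWCNT (2.38-fold, adjusted p 3.42e-10). DiBASC2 moved Id3 the other way. Its libraries stood at 2.70, 3.84 and 4.15 CPM, each below the lowest control library. The log2 fold change was -0.73 ± 0.15 (1.66-fold lower, adjusted p 0.00175), and all 6 fits with 1 library left out called it (-0.84 to -0.57). Id3 in Fura-2 (mean 6.10 CPM), Di-2-ANEPEQ (5.75) and AAV (6.65) overlapped the control libraries.

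Id2 (chromosome 12, 25093799 to 25097140) rose less than Id3 and in another pattern across treatments. Its control libraries stood at 27.3, 24.3 and 26.2 CPM, LPS at 50.2, 58.9 and 56.6, (GT)6 SWCNT at 51.7, 54.5 and 44.3, and COOH SWCNT at 32.4, 37.2 and 37.4. LPS and (GT)6 SWCNT overlapped, COOH SWCNT lay between them and control, and none of the 3 groups overlapped control. The log2 fold change was 1.10 ± 0.07 in LPS (2.14-fold, adjusted p 2.41e-15), 0.96 ± 0.07 in (GT)6 SWCNT (1.95-fold, adjusted p 2.6e-13) and 0.46 ± 0.07 in COOH SWCNT (1.38-fold, adjusted p 1.28e-05). Id2 in DiBASC2, where Id3 was lower, was 26.6, 27.1 and 28.1 CPM, and its log2 fold change of 0.08 ± 0.08 was not called (interval -0.08 to 0.24).

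Id1 (chromosome 2, 152736251 to 152737410) was the member not tested. No library held more than 5 Id1 reads, and it was at 0 in every library of COOH SWCNT, DiBASC2 and AAV. A count of 0 allows up to 3 reads per library, which is 0.102 to 0.176 CPM at these depths and covers counting error only. The highest level, 0.272 CPM, was in LPS replicate 1, while LPS replicate 2 was at 0. No difference between groups was detectable for Id1 at this depth.

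**Figure D2:**
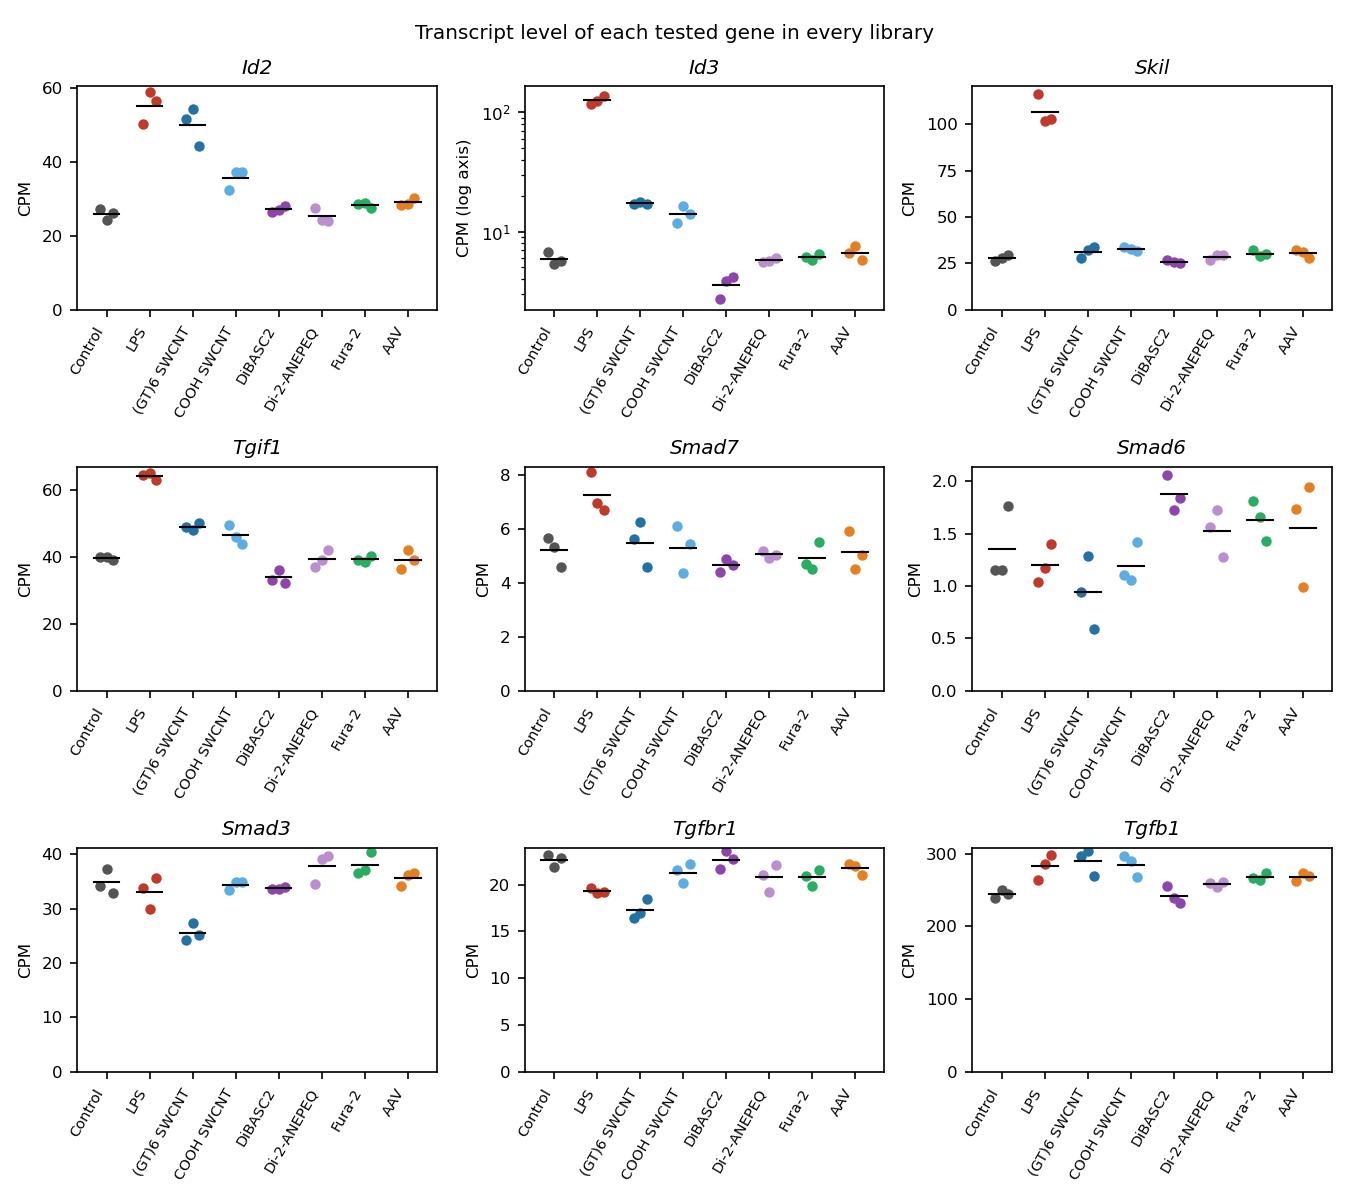
CPM of each tested gene in every library (points, 3 per group) with the group mean (black line), all axes linear from 0 except the log axis of Id3. The LPS points of Id3 (117 to 137 CPM) and Skil (102 to 116 CPM) stand clear of the other 7 groups, and the (GT)6 SWCNT points are lowest for Smad3 and Tgfbr1.

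The plot of library levels shows that the levels of Id2 in (GT)6 SWCNT sit with LPS, while those of Id3 sit nearer to COOH SWCNT.

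Of the corepressors, Skil (chromosome 3, 31095058 to 31122577) responded mainly to LPS. SKIL binds SMADs on DNA and is itself a gene induced by TGF-beta. Its control libraries stood at 25.99, 27.9 and 29.7 CPM and its LPS libraries at 116, 102 and 103. The groups were far apart, with a log2 fold change of 1.94 ± 0.07 (3.83-fold, adjusted p 2.74e-24). COOH SWCNT libraries stood at 33.7, 32.9 and 31.4 CPM, above all controls, a log2 fold change of 0.23 ± 0.07 (adjusted p 0.0188). That call was lost without control replicate 1 (adjusted p 0.0936), without COOH SWCNT replicate 1 (0.0828) and without COOH SWCNT replicate 2 (0.05004). In (GT)6 SWCNT Skil stood at 27.7, 32.2 and 33.7 CPM, overlapping control, and its log2 fold change of 0.16 ± 0.07 was not called (adjusted p 0.135). Without (GT)6 SWCNT replicate 1, the lowest of the 3, it was 0.25 (adjusted p 0.0184).

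Tgif1 (chromosome 17, 70844205 to 70853546), a homeodomain corepressor of SMAD target genes, moved in 4 groups. Control libraries stood at 40.1, 39.9 and 39.1 CPM, LPS at 64.5, 65.3 and 63.1, (GT)6 SWCNT at 49.0, 48.2 and 50.04, COOH SWCNT at 49.5, 45.99 and 43.98, and DiBASC2 at 33.1, 36.2 and 32.3. None of these 4 groups overlapped control. The log2 fold change was 0.70 ± 0.06 in LPS (adjusted p 6.81e-13), 0.30 ± 0.06 in (GT)6 SWCNT (adjusted p 9.15e-05), 0.23 ± 0.06 in COOH SWCNT (adjusted p 0.00318) and -0.23 ± 0.06 in DiBASC2 (adjusted p 0.0136). The DiBASC2 call was lost without control replicate 1 (adjusted p 0.076), control replicate 2 (0.0588), DiBASC2 replicate 1 (0.0536) or DiBASC2 replicate 3 (0.1). Id3 and Tgif1 thus had the same 4 treatments in which they were called, with the same signs.

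The inhibitory SMADs were the least abundant of the tested genes. Smad7 (chromosome 18, 75367529 to 75395935), which blocks the TGF-beta receptor and recruits ubiquitin ligases to it, stood at 5.66, 5.32 and 4.59 CPM in control and 8.10, 6.93 and 6.69 in LPS. The groups did not overlap, and the log2 fold change was 0.47 ± 0.14 (1.39-fold, adjusted p 0.00652). Smad7 overlapped control in every probe group, with group means from 4.65 CPM in DiBASC2 to 5.48 in (GT)6 SWCNT. Smad6 (chromosome 9, 63953076 to 64022059), whose protein inhibits mainly the BMP branch, held 10 to 55 reads per library. It was called in no comparison. Its group means ran from 0.940 ± 0.352 CPM (SD, n = 3) in (GT)6 SWCNT to 1.88 ± 0.171 in DiBASC2, and the intervals were wide. Against control they ran from -1.09 to 0.14 in (GT)6 SWCNT and from -0.06 to 1.01 in DiBASC2 on the log2 scale.

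Smad3 (chromosome 9, 63646767 to 63757994), a SMAD that carries the TGF-beta signal, was lower in 1 treatment. Control libraries stood at 34.2, 37.4 and 32.8 CPM and (GT)6 SWCNT at 24.3, 27.3 and 25.1. All other libraries were at 29.9 CPM or above, so the (GT)6 SWCNT libraries lay below every library of the 7 other groups. Against control its log2 fold change was -0.45 ± 0.07 (1.37-fold lower, adjusted p 2.76e-06). In LPS it was -0.08 ± 0.07 (adjusted p 0.436, interval -0.22 to 0.06) and in COOH SWCNT -0.02 ± 0.07 (adjusted p 0.868, interval -0.16 to 0.12).

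Tgfbr1 (chromosome 4, 47353222 to 47414931), the type I receptor for TGF-beta, was lower in (GT)6 SWCNT and LPS. Control libraries stood at 23.1, 21.9 and 22.9 CPM, LPS at 19.6, 19.1 and 19.2, and (GT)6 SWCNT at 16.5, 16.9 and 18.5. The 3 groups did not overlap each other. The log2 fold change was -0.23 ± 0.07 in LPS (adjusted p 0.00853) and -0.39 ± 0.07 in (GT)6 SWCNT (1.31-fold lower, adjusted p 2.4e-05). In COOH SWCNT it was -0.08 ± 0.07, not called. The endothelial marker Kdr fell in the same 2 treatments, with log2 fold changes of -0.47 in LPS and -0.33 in (GT)6 SWCNT (adjusted p 6.1e-09 and 9.97e-06). The sum of the 5 endothelial markers was 128 to 138 CPM in control, 90.8 to 102 in LPS and 102 to 109 in (GT)6 SWCNT. Of the other 4, Cldn5 was at 0 in all libraries, and no group mean of Pecam1, Cdh5 or Tek in control, LPS or (GT)6 SWCNT was above 0.227 CPM.

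Tgfb1 (chromosome 7, 25687002 to 25705077), the ligand, was the most abundant member and changed little. Control libraries stood at 238, 249.6 and 245 CPM, LPS at 263, 285 and 298, (GT)6 SWCNT at 297, 304 and 269, and COOH SWCNT at 296, 290.3 and 268. All 9 treated libraries lay above the 3 controls. The log2 fold change was 0.21 ± 0.05 in LPS (adjusted p 0.000377), 0.25 ± 0.05 in (GT)6 SWCNT (adjusted p 5.47e-05) and 0.22 ± 0.05 in COOH SWCNT (adjusted p 0.000363). AAV libraries (262, 274 and 269 CPM), Fura-2 libraries (266, 264 and 273 CPM) and Di-2-ANEPEQ libraries (259, 255 and 261 CPM) also lay above all controls. Their log2 fold changes of 0.13 ± 0.04, 0.13 ± 0.05 and 0.08 ± 0.05 were not called (adjusted p 0.0717, 0.241 and 0.387). The AAV value passed the threshold in a fit of AAV and control alone (adjusted p 0.0324) and with no filter on low counts (0.0265).

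In Fura-2, Di-2-ANEPEQ and AAV none of the 9 tested members was called in edgeR's quasi-likelihood test, where 0.252%, 3.08% and 5.00% of all genes were called. DESeq2 called none either. At an unadjusted p under 0.05 there was 1 member in Fura-2 (Tgfb1; 10.8% of all genes), none in Di-2-ANEPEQ (16.5%) and 2 in AAV (Id2 and Tgfb1; 20.7%). The groups did not overlap control for 3 of the 9 in Fura-2 (Id2, Tgfb1 and Tgfbr1), 1 in Di-2-ANEPEQ (Tgfb1) and 2 in AAV (Id2 and Tgfb1), where 16.2%, 24.3% and 24.6% of all genes did not overlap. Nothing about the members is read from these counts.

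The direct comparisons asked how each nanotube differed from LPS and from the other nanotube. Against LPS, 5 of 9 members were called in (GT)6 SWCNT (21.6% of all genes) and 5 in COOH SWCNT (37.8% of all genes), and all of these were lower. Id3 was 7.28-fold lower in (GT)6 SWCNT than in LPS (log2 fold change -2.86 ± 0.08, adjusted p 3.33e-26) and 8.98-fold lower in COOH SWCNT (-3.17 ± 0.08, adjusted p 2.09e-27). Skil was 3.44-fold and 3.27-fold lower (adjusted p 4.06e-23 and 7.3e-23). Tgif1 was 1.31-fold lower in (GT)6 SWCNT and 1.38-fold lower in COOH SWCNT (adjusted p 4.75e-07 and 7.1e-09). These 3 genes, 2 of them corepressors, were therefore intermediate in both nanotube groups or, for Skil in (GT)6 SWCNT, not separable from control.

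Id2 and Smad3 separated the 2 nanotubes against LPS. Id2 in (GT)6 SWCNT did not differ from LPS beyond the spread (log2 fold change -0.13 ± 0.07, adjusted p 0.161, interval -0.28 to 0.01), except without LPS replicate 1 (-0.20, adjusted p 0.0429). Id2 in COOH SWCNT was 1.55-fold lower than in LPS (adjusted p 1.2e-09). Smad3 in (GT)6 SWCNT was 1.29-fold lower than in LPS (adjusted p 6.03e-05), while in COOH SWCNT its log2 difference from LPS was 0.06 ± 0.07 (adjusted p 0.549).

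Smad7 was lower than in LPS with both nanotubes, by less firm calls. Its log2 fold change was -0.38 ± 0.13 in (GT)6 SWCNT (adjusted p 0.0339) and -0.43 ± 0.13 in COOH SWCNT (adjusted p 0.00837). The first call was lost without (GT)6 SWCNT replicate 1 (adjusted p 0.0777) or replicate 3 (0.168) and without LPS replicate 1 (0.17) or replicate 2 (0.0566). It was also lost with upper-quartile factors (0.0509), with library totals alone (0.0556) and in a fit of the 2 groups alone (0.0525). The second was lost without COOH SWCNT replicate 2 (0.0605) or LPS replicate 1 (0.0563). Tgfbr1 was 1.12-fold lower in (GT)6 SWCNT than in LPS and was not called (adjusted p 0.0845), but was called without (GT)6 SWCNT replicate 3 (0.0485). In COOH SWCNT Tgfbr1 differed from LPS by 0.14 ± 0.07 on the log2 scale (adjusted p 0.0872), and by 0.20 with upper-quartile factors (0.0181) and 0.22 with library totals alone (0.0093).

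**Figure D3:**
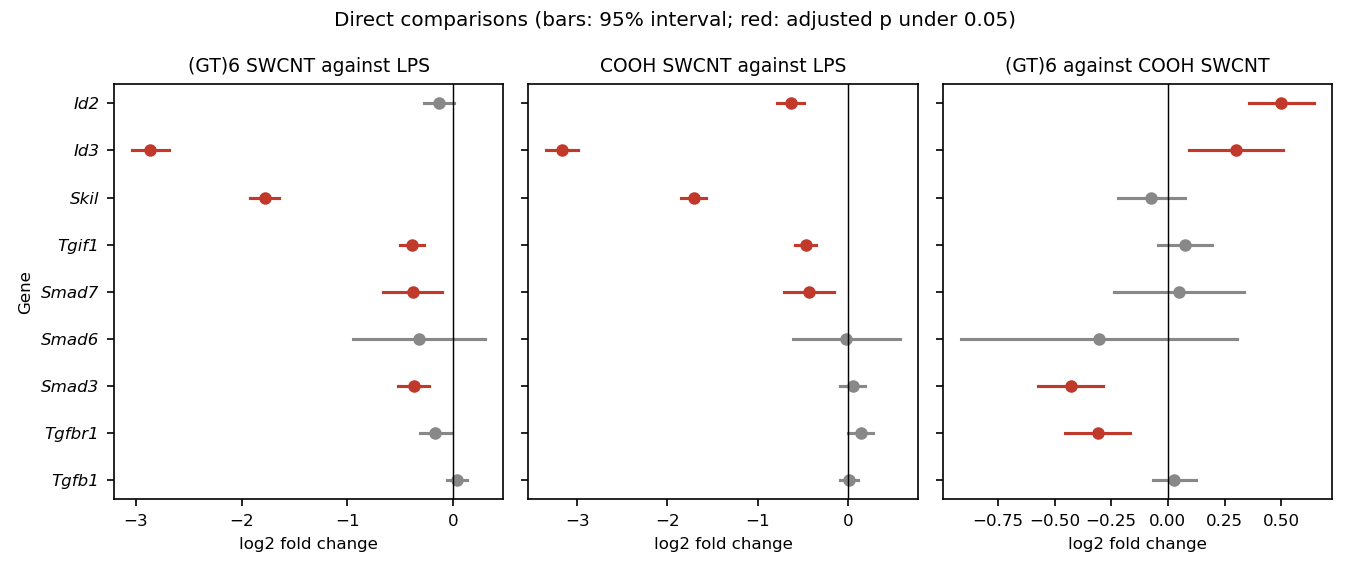
log2 fold change (points) with its 95% interval (bars) for each gene, from left to right in (GT)6 SWCNT and COOH SWCNT against LPS and between the nanotubes, from 3 libraries per group. Red marks an adjusted p under 0.05. In the right panel, whose axis is narrower, Id2 (0.50) and Id3 (0.30) lie to the right of 0 and Smad3 (-0.43) and Tgfbr1 (-0.31) to the left.

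Between the nanotubes 4 of 9 members were called (21.4% of all genes). Id2 was 1.42-fold higher in (GT)6 SWCNT (log2 fold change 0.50 ± 0.07, adjusted p 1.06e-06). Smad3 was 1.35-fold lower (-0.43 ± 0.07, adjusted p 1.12e-05) and Tgfbr1 1.24-fold lower (-0.31 ± 0.07, adjusted p 0.000808) in (GT)6 SWCNT. These 3 differences were called in each of the 6 fits without 1 library. Id3 was 1.23-fold higher in (GT)6 SWCNT (0.30 ± 0.10, adjusted p 0.0234), and that call was lost without COOH SWCNT replicate 1 (0.19, adjusted p 0.228) or (GT)6 SWCNT replicate 2 (0.28, adjusted p 0.0833). Skil, Tgif1, Smad7 and Tgfb1 differed by at most 0.08 in either direction, with intervals of -0.22 to 0.07, -0.04 to 0.19, -0.24 to 0.34 and -0.07 to 0.12. The plot of direct comparisons shows these intervals beside the wider one of Smad6.

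Ranked per kilobase of exon (CPM per kb), the order of the ID genes turned between groups. In control Id2 was at 10.6 ± 0.625 CPM per kb (SD, n = 3) and Id3 at 3.31 ± 0.411. In LPS Id3 was at 70.4 ± 5.60 CPM per kb and Id2 at 22.7 ± 1.85. In (GT)6 SWCNT Id2 was at 20.6 ± 2.16 and Id3 at 9.66 ± 0.267, and in COOH SWCNT at 14.6 ± 1.17 and 7.91 ± 1.29. Id3 thus exceeded Id2 in LPS and was below it in both nanotube groups and control. In LPS the Id3 level per kb was also above that of Tgfb1 (56.0 ± 3.50), which led in control at 48.4 ± 1.12. That order rests on the division by exon length, since in CPM Tgfb1 (282) stood above Id3 (126) in LPS. The union of exons need not be the length of the transcript expressed. In control Id2 was followed by Tgif1 (7.06), Smad3 (6.28), Tgfbr1 (3.47), Id3, Skil (2.87), Smad7 (1.15) and Smad6 (0.423), all in CPM per kb. Among neighbours in that order, Id3 overlapped Tgfbr1 and Skil, and the others did not overlap.

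The order of groups differed from gene to gene. LPS was highest for Id2, Id3, Skil, Tgif1 and Smad7, and for the last 4 of these it did not overlap the next group. For Id2 the next group, (GT)6 SWCNT, overlapped LPS. For Tgfb1 the 3 highest groups, (GT)6 SWCNT, COOH SWCNT and LPS, overlapped. For Tgfbr1 and Smad3 (GT)6 SWCNT was lowest and LPS next lowest, without overlap between them. DiBASC2 was lowest for Id3, Skil, Tgif1, Smad7 and Tgfb1, and the Skil, Smad7 and Tgfb1 changes there were not called. No fold change of a member reversed its sign among called values under any scaling tried.

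The rest of the pathway was followed in a list of 61 genes, of which 39 were tested. Of the 22 untested genes 9 were at 0 in every library and none held more than 14 reads in a library. In LPS 20 of the 39 were called, 10 higher and 10 lower, where 28.3% of all tested genes were called. The median log2 fold change of the 39 was 0.03 beside -0.01 over all genes. In (GT)6 SWCNT 13 were called (20.4% of all genes), 8 higher and 5 lower (median -0.00 beside -0.02). In COOH SWCNT 8 were called (20.03% of all genes), 7 higher and 1 lower (median 0.11 beside -0.00). In DiBASC2 4 were lower (5.47% of all genes called). In AAV 3 (5.00%) and in Di-2-ANEPEQ 2 (3.08%) were higher, and in Fura-2 (0.252%) none was called. The list was also written with earlier results known, and nothing about the pathway is read from these counts.

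Among the target genes reported here Myc, a growth regulator that TGF-beta is known to repress in epithelial cells, had the highest log2 fold change in LPS and with both nanotubes. Its control libraries stood at 2.42, 2.34 and 2.35 CPM, its LPS libraries at 29.9, 31.2 and 31.2, its (GT)6 SWCNT libraries at 8.05, 8.38 and 7.91 and its COOH SWCNT libraries at 6.37, 5.26 and 4.13. None of the 4 groups overlapped another. Myc rose by 3.70 ± 0.14, 1.78 ± 0.17 and 1.15 ± 0.18 on the log2 scale in the same order (adjusted p 1.82e-22, 8.38e-11 and 5.56e-06). Cdkn1a, the cell-cycle inhibitor p21, rose by 0.83, 0.55 and 0.55 (SE 0.05 in each), and its exons overlap a gene on the other strand, so its value is uncertain where strand was not used.

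Klf10, the TGF-beta-inducible early gene, went against that pattern in LPS. Its control libraries held 364, 569 and 472 reads, a mean of 23.1 ± 2.76 CPM (SD, n = 3), and its LPS libraries stood at 11.3, 9.67 and 9.26 CPM. This was a log2 fold change of -1.21 ± 0.09 (adjusted p 6.53e-14). In (GT)6 SWCNT (0.26 ± 0.08, adjusted p 0.0137) and COOH SWCNT (0.28 ± 0.08, adjusted p 0.00756) it was higher than control. Without control replicate 1 neither of these was called (adjusted p 0.102 and 0.0833), and without (GT)6 SWCNT replicate 1 the first was not (0.0774). Klf10 was higher in both nanotube groups than in LPS (log2 fold change 1.46 ± 0.09 and 1.48 ± 0.09).

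Among receptors 9 of 11 were tested. In LPS 4 were lower and 1 higher, where 28.3% of all tested genes were called. In (GT)6 SWCNT 2 were lower and 1 higher (20.4% of all genes), and in COOH SWCNT none was called (20.03% of all genes). Nothing about the receptors is read from these counts. Tgfbr2, the type II partner of TGFBR1, singled out here after its values were seen, was lower in LPS (log2 fold change -0.30 ± 0.06) and in (GT)6 SWCNT (-0.26 ± 0.06) (adjusted p 6.67e-05 and 0.000889). In COOH SWCNT its value was -0.00 ± 0.06 (adjusted p 0.999). Tgfbr1 and Tgfbr2 were thus both lower in LPS and (GT)6 SWCNT and not called in COOH SWCNT. Acvr2b, an activin type II receptor, was lower in (GT)6 SWCNT (-0.56 ± 0.17, adjusted p 0.0158), with overlapping groups, and the call was lost without control replicate 1 (0.137) or 3 (0.0737) and without (GT)6 SWCNT replicate 1 (0.052) or 3 (0.104).

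Furin, the protease that cleaves the TGF-beta precursor, was higher by 0.88 ± 0.05 in LPS, 0.78 ± 0.05 with (GT)6 SWCNT and 0.64 ± 0.05 with COOH SWCNT on the log2 scale (adjusted p 2.52e-18, 2.61e-16 and 2.39e-13). A gene on the other strand overlaps its exons, so this value is uncertain too. Gdf11, a ligand related to activins, stood at 2.58, 3.45 and 3.58 CPM in control and was lower by small counts in all 3 groups. Its log2 fold change was -0.61 ± 0.18 in LPS (adjusted p 0.0102), -0.66 ± 0.18 in (GT)6 SWCNT (0.00767) and -0.49 ± 0.18 in COOH SWCNT (0.0444). Without control replicate 3 none of the 3 was called (0.0589, 0.0574 and 0.181), and without control replicate 2 none was either (0.0627, 0.0561 and 0.156). Other libraries also ended a call: LPS replicate 3 in LPS (0.0753), and COOH SWCNT replicate 1 (0.0855), 2 (0.12) or 3 (0.0843) in COOH SWCNT. The Gdf11 call in COOH SWCNT was also lost with the DESeq2 test (0.0726), with no filter on low counts (0.0826), in a fit of the 2 groups alone (0.0699) and with upper-quartile factors (0.0501).

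**Figure D4:**
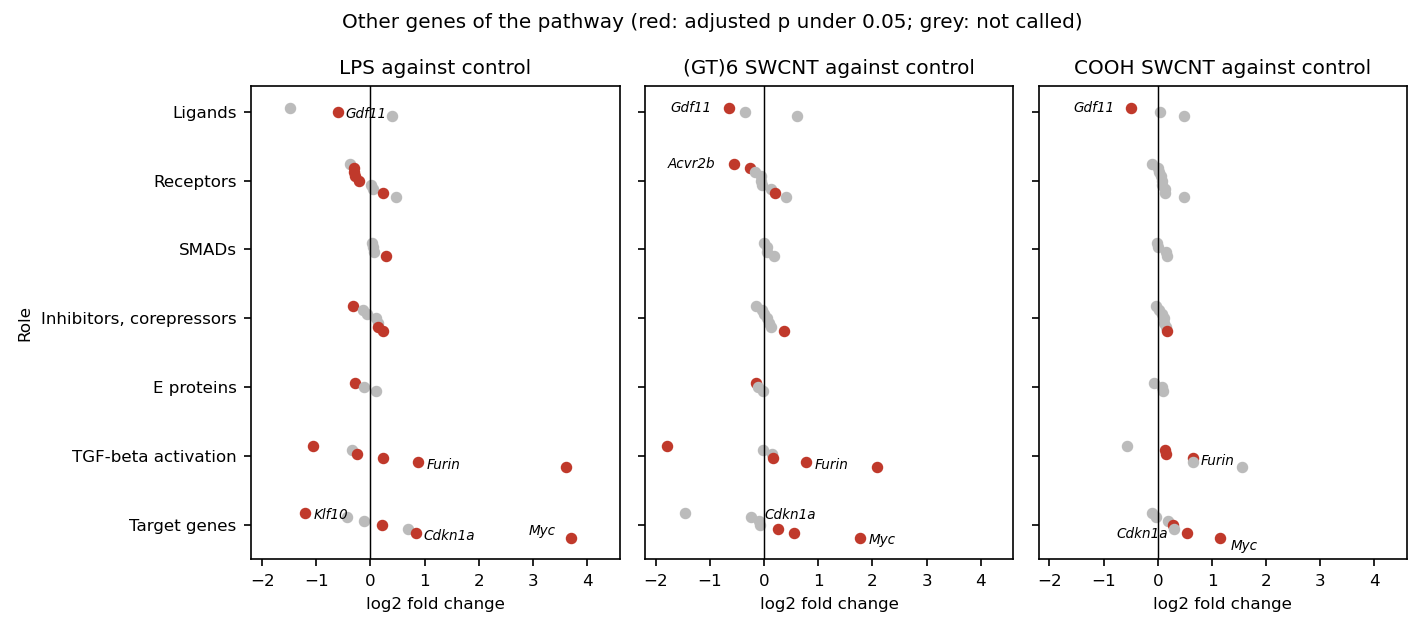
log2 fold change against control (horizontal) of the 39 tested pathway genes by role (vertical; offsets within a role only separate points) in LPS, (GT)6 SWCNT and COOH SWCNT. Red marks an adjusted p under 0.05. Names are given for the genes chosen by rule with a called change, except for the small Klf10 changes with both nanotubes. Myc lies farthest right among the target genes shown in all 3 panels.

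The plot of pathway genes by role shows that the SMADs and E proteins stayed within 0.29 of 0 in either direction in these 3 groups, while the target genes and the activation genes spread widely. Among the activation genes, the outlying unnamed red points in LPS and (GT)6 SWCNT are Lrrc32 (3.61 and 2.09) and Thbs1 (-1.07 and -1.79). Both genes were under 1 CPM on average and are singled out here after their values were seen. In COOH SWCNT Lrrc32 was the highest of the activation genes (1.55) and Thbs1 the lowest (-0.56). None of the activation genes was called lower there. The E protein partners of the ID proteins had 3 tested genes. Of these 1 was lower in LPS (28.3% of all genes called), 1 was lower in (GT)6 SWCNT (20.4%) and none was called in COOH SWCNT (20.03%). Nothing about the E proteins is read from these counts.

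Some genes followed the members closely over the 24 libraries. Among 9492 genes with a mean of at least 5 CPM, the log2 levels of Id3 ran most closely with Ptgs2, the inducible prostaglandin synthase (Pearson's r 0.995), the kinase gene Pim1 (0.993) and the cytokine gene Tnf (0.992). Without the LPS libraries, r over the remaining 21 was 0.972, 0.970 and 0.980. Id2 ran most closely with Prag1 (0.965), Rhoc (0.965) and Atf3 (0.963), at 0.947, 0.937 and 0.948 without LPS. For Smad7 the closest gene was Cdc73 (0.888, and 0.759 without LPS), and for the sparse Smad6 it was N4bp3 (0.804, and 0.833 without LPS). These are descriptions: the libraries fall into treatment groups, share their scaling and include the groups that moved these genes, and the closest of 9492 genes is close by selection.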

How the data were processed

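Poly-A RNA of 24 libraries (8 groups of 3, from the titles) was sequenced. The authors deposited 1 table of raw read counts per gene. Per the submitters' processing notes STAR 2.5.4b and the build GRCm38.p6 were used. The counting tool, strand setting and annotation are not given in the sources used here. Symbols and positions came from GENCODE M21 (54809 of 54838 identifiers matched without their version). The fit used edgeR 4.0.16 (R 4.3.3) with filterByExpr defaults, TMM factors, 1 quasi-likelihood model of 8 group means over all libraries (16 residual degrees of freedom), and 10 two-sided contrasts with Benjamini-Hochberg adjustment over 13116 genes, called under 0.05. A standard error is the log2 fold change divided by the square root of F. CPM use the TMM factors, and CPM per kb divide by the union of exons. The fit was tested on simulated data. Replicates differed by more than sampling noise (chi-square per degree of freedom 2.46 to 19.4 over 24 pairs). Index numbers run in blocks by group, so library order and group cannot be told apart.

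The members, the pathway and marker lists and the rules were chosen with earlier results of these data known. From the pathway list 1 gene is not reported here and is left out of that list's counts, medians and plot. Pathway genes were named where called against control in LPS, a nanotube group or DiBASC2 with a log2 fold change of 0.5 or more in size and at least 1 CPM. The 3 genes nearest to each of Id1, Id2, Id3, Smad6 and Smad7 were computed. Id1 is too sparse to show them. Alternatives were DESeq2 1.42.0 and its size factors, upper-quartile factors, library totals, no filter, a mean of at least 50 counts, a replicate block, the 2 groups alone, and leaving out each library.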

Additional observations from a re-analysis of the deposited data

How the results depend on the processing

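No called log2 fold change of a member or pathway gene reversed its sign under any alternative. Of all 2090 alternative values 66 had the other sign than the reported one, for fold changes of at most 0.22 in size, and none of the 66 was called in either fit. The medians over all genes moved by less than 0.1. Of the member counts, AAV went from 0 to 1 (Tgfb1) with no low-count filter and in a fit of the 2 groups alone. Without 1 library DiBASC2 lay between 1 and 2, (GT)6 SWCNT between 6 and 7 and COOH SWCNT between 4 and 5. Each nanotube against LPS then lay between 4 and 5, and the nanotubes against each other between 3 and 4. With upper-quartile factors or library totals only, COOH SWCNT against LPS gained Tgfbr1 and (GT)6 SWCNT against LPS lost Smad7. Counts over all genes moved most where few were called. Fura-2 against control gave 33 genes, but 65 with the DESeq2 test, 53 with library totals only, 188 with no filter, 80 with the 2 groups alone and 0 to 106 without 1 library. It gave 0 without control replicate 1 or 3 or Fura-2 replicate 2 or 3, and 106 without Fura-2 replicate 1. Di-2-ANEPEQ gave 404, and 814 with the 2 groups alone. Without 1 library it gave 120 to 418 (lowest without control replicate 1). AAV gave 656, and 157 to 769 (lowest without control replicate 3). DiBASC2 gave 717, and 333 to 574 (lowest without control replicate 1). Depth limits 2 members: Smad6 was not tested at a mean of at least 50 counts, and Id1 was not tested with either filter.

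The share of called genes that were higher moved by over 10 points with scaling. With upper-quartile factors and with library totals only it was 35.4% and 27.96% in LPS (48.7% with TMM), 54.9% and 54.6% in DiBASC2 (33.3%), 57.5% and 58.2% in (GT)6 SWCNT against LPS (44.6%), 62.5% and 67.6% in COOH SWCNT against LPS (47.9%), and 44.4% and 35.6% between the nanotubes (55.6%). It was 33.3% in (GT)6 SWCNT with library totals only (48.4%) and 26.3% in AAV with upper-quartile factors (36.7%).

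Replicate numbers gave little sign of pairing: of 30 same-numbered pairs, 2 had correlated deviations over 0.1, and 11 correlated best with their own number. These 11 include each pair of AAV against control. With few libraries per group this cannot show whether a number marks a shared culture or day, and the labels do not say. With a replicate block LPS gave 3683 called genes, AAV 580, COOH SWCNT 2548, (GT)6 SWCNT 2631, Di-2-ANEPEQ 396, Fura-2 22 and DiBASC2 694. All 10 member counts were equal with and without the block.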
